A study of Mus musculus with 6 samples.

Results

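Opioid signalling genes were read out in the nucleus accumbens (NAc) of mice as 4 receptors and 3 peptide precursors, selected by name: the mu receptor gene Oprm1, the delta receptor gene Oprd1, the kappa receptor gene Oprk1, the nociceptin receptor gene Oprl1, and the precursor genes Penk (proenkephalin), Pdyn (prodynorphin) and Pnoc (prepronociceptin). These 7 genes were among 16154 genes listed in any library, and they held 41 of 133207 distinct events and 184 of 440199 listed entries. The mice were adult male C57BL/6N animals trained in conditioned place preference (CPP), a procedure that pairs an injection with a compartment whose cues the animal learns. One group of 3 libraries came from mice given morphine, and the other 3 libraries came from mice given saline in the same training. No allele or transgene was involved in either group. RNA came from the whole NAc of frozen tissue, collected soon after the place preference test, which followed the last training session by a day. Training and test were shared by both groups. The paper reports that at the test morphine mice spent more time in the drug-paired compartment than saline mice. Repeated drug exposure and the learned preference therefore cannot be told apart in this comparison.

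The receptors are G protein-coupled receptors that act through inhibitory G proteins: they lower cyclic AMP, open inwardly rectifying potassium channels and close presynaptic calcium channels. Morphine acts mainly on the mu receptor. Enkephalins, cut from proenkephalin, act mainly on delta and mu receptors, dynorphins act on the kappa receptor, and nociceptin acts on its own receptor, which binds the classical opioids poorly. In the NAc, Penk is known as a gene of the indirect-pathway medium spiny neurons and Pdyn of the direct-pathway neurons. Receptor genes of this family are known for long introns and for splice variants that change the intracellular tail or truncate the protein.

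What was measured was structure, not amount. An event is a piece of exon structure in the transcripts assembled from 1 library: a transcript start (the first exon), a transcript end (the last exon), a skipped exon (listed with a form that includes it and a form that leaves it out), an exon with an alternative edge, or a retained intron. The lists hold no usable level, so a gene that is listed has some assembled structure under its identifier in that library. An event that is not listed may be absent or too sparsely covered to be assembled. A skipped exon may also be unlisted because its forms were not both assembled, and a locus may have been assembled with another structure. In bulk tissue, fewer cells of a type and less RNA per cell cannot be told apart either. The lists held 54750 to 62313 events from 14243 to 14956 genes per library. Events numbered 58281, 54750 and 57212 in saline 1, 2 and 3, and 62313, 60582 and 56969 in morphine 1, 2 and 3. Relative depth was estimated from 91 values of a table of lncRNA transcripts and set to 1 in the library with the lowest estimate. It was 1, 1.07 and 1.37 in the saline libraries and 1.2, 1.59 and 1.29 in the morphine libraries, an order unlike that of the event numbers. The ratio of the group means of relative depth was 1.19, and the groups overlapped (exact two-sided permutation test, p = 0.3, 3 libraries against 3, where 0.1 is the smallest p possible). Of the marker genes of medium spiny neurons, the principal cells of the NAc, Drd1, Drd2, Adora2a, Ppp1r1b, Rgs9, Tac1 and Gpr6 were listed in all 6 libraries. So were all markers of other cell types looked for, including glial cells and cortical neurons, except the endothelial gene Cldn5, listed in no library. The other endothelial marker, Pecam1, was listed in all 6 libraries. Being listed says only that the transcript was assembled, so the purity of the dissection was not measured.

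The sequences that carry the receptor and precursor structures come from GENCODE M21 transcripts on GRCm38, 5′ to 3′ on the gene's strand. Oprm1 has alternative last exons that give the receptor different intracellular tails. The first tail begins at the acceptor assembled in most libraries, and the second at an acceptor assembled in 3. Lower case marks the 15 bases of the exon before, and capitals mark the tail with its stop codon, at chr10:6849806-6849844 and chr10:6979616-6979708 (plus strand).
Oprm1 short tail: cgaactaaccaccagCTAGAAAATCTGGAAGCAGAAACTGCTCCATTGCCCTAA
Oprm1 long tail: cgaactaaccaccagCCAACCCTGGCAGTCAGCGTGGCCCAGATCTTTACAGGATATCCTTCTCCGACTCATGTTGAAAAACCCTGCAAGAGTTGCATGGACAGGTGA

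The short tail had 12 codons and the long tail 30 before the stop, from the same preceding bases. Oprl1 carried the most splice events of the 7 genes. Capitals mark the 15 bases between its donor pair (chr2:181715932-181715946, plus strand), then its 34-base cassette exon (chr2:181716502-181716535), then the first 64 bases of its 139-base cassette exon up to and including a stop codon (chr2:181717955-181718018). Lower case marks the neighbouring exon bases in a transcript that holds the stretch.
Oprl1 donor stretch: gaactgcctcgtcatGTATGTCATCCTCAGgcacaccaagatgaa
Oprl1 short cassette: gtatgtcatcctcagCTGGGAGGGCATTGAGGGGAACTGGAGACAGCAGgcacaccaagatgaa
Oprl1 long cassette: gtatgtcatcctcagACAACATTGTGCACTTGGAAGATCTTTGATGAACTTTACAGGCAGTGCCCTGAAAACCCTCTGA

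The donor stretch is a whole number of codons, while the 34-base exon is not, and the 139-base exon brought a stop codon within its own length. In Pnoc, an alternative donor decides whether the coding sequence stops just after the junction or runs into the next exon. Capitals mark the 11 bases up to and with the stop codon of the long exon (chr14:65404749-65404759, minus strand), and the first 24 bases of the next exon in the spliced form (chr14:65401838-65401861).
Pnoc long exon: ccctgcaccagaatgGTAATGTGTAG
Pnoc spliced form: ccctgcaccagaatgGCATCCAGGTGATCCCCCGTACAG

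The precursors carry their peptides as short codon blocks, and pairs of basic codons (lysine or arginine) are known cleavage sites of prohormone convertases. In Penk, 6 blocks code for Met-enkephalin and 1 for Leu-enkephalin. In Pdyn, 3 blocks code for the Leu-enkephalin core, with which the dynorphins and neoendorphin begin, and in Pnoc 1 block codes for the start of nociceptin. Capitals mark the block, and lower case the codon pairs around it. The Penk blocks shown are the first Met-enkephalin block (chr4:4134334-4134348) and the Leu-enkephalin block (chr4:4133941-4133955), the Pdyn blocks are at chr2:129688238-129688252, chr2:129688130-129688144 and chr2:129688073-129688087, and the Pnoc block is at chr14:65404878-65404892, all on the minus strand.
Penk Met-enkephalin block: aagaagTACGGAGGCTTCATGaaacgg
Penk Leu-enkephalin block: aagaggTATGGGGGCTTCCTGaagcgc
Pdyn Leu-enkephalin block 1: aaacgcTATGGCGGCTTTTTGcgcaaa
Pdyn Leu-enkephalin block 2: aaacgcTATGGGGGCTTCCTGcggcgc
Pdyn Leu-enkephalin block 3: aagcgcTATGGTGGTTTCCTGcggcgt
Pnoc nociceptin start: aaaaggTTTGGGGGCTTCACCggggcc

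A basic pair stood before all 7 Penk blocks and after 5 of them, and on both sides of all 3 Pdyn blocks. Because the dynorphins and neoendorphin only begin with the core, the pair after a Pdyn block does not mark the end of those peptides. The nociceptin block had a basic pair before it and none directly after its first 5 codons, where the peptide goes on. All blocks of a precursor lay in 1 exon, which in Penk and Pdyn was the last exon, assembled as the transcript end.

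All 7 genes were listed in all 6 libraries, as were 81.6% of the listed genes, although the entries of Penk in morphine 3 were all on the opposite strand. Their 41 events were 14 starts, 14 ends and 13 splice events, of which 7 were of skipped exons and 6 of exons with alternative edges. The same exon can count more than once among these, by its own edges or by the donor joined to it. No retained intron was listed for any of the 7 genes in any library. Over all genes, the classes of retained introns held 14320, 5316, 5325 and 1565 of the 133207 distinct events. The absence among 41 events was not tested. Of the 41 events, 37 were on the strand of their gene, and 33 of these used an annotated splice site or exon. The other 4 lay on the opposite strand. All 14 events found in all 6 libraries were annotated, against 6 of the 12 found in 1 library.

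**Figure D1:**
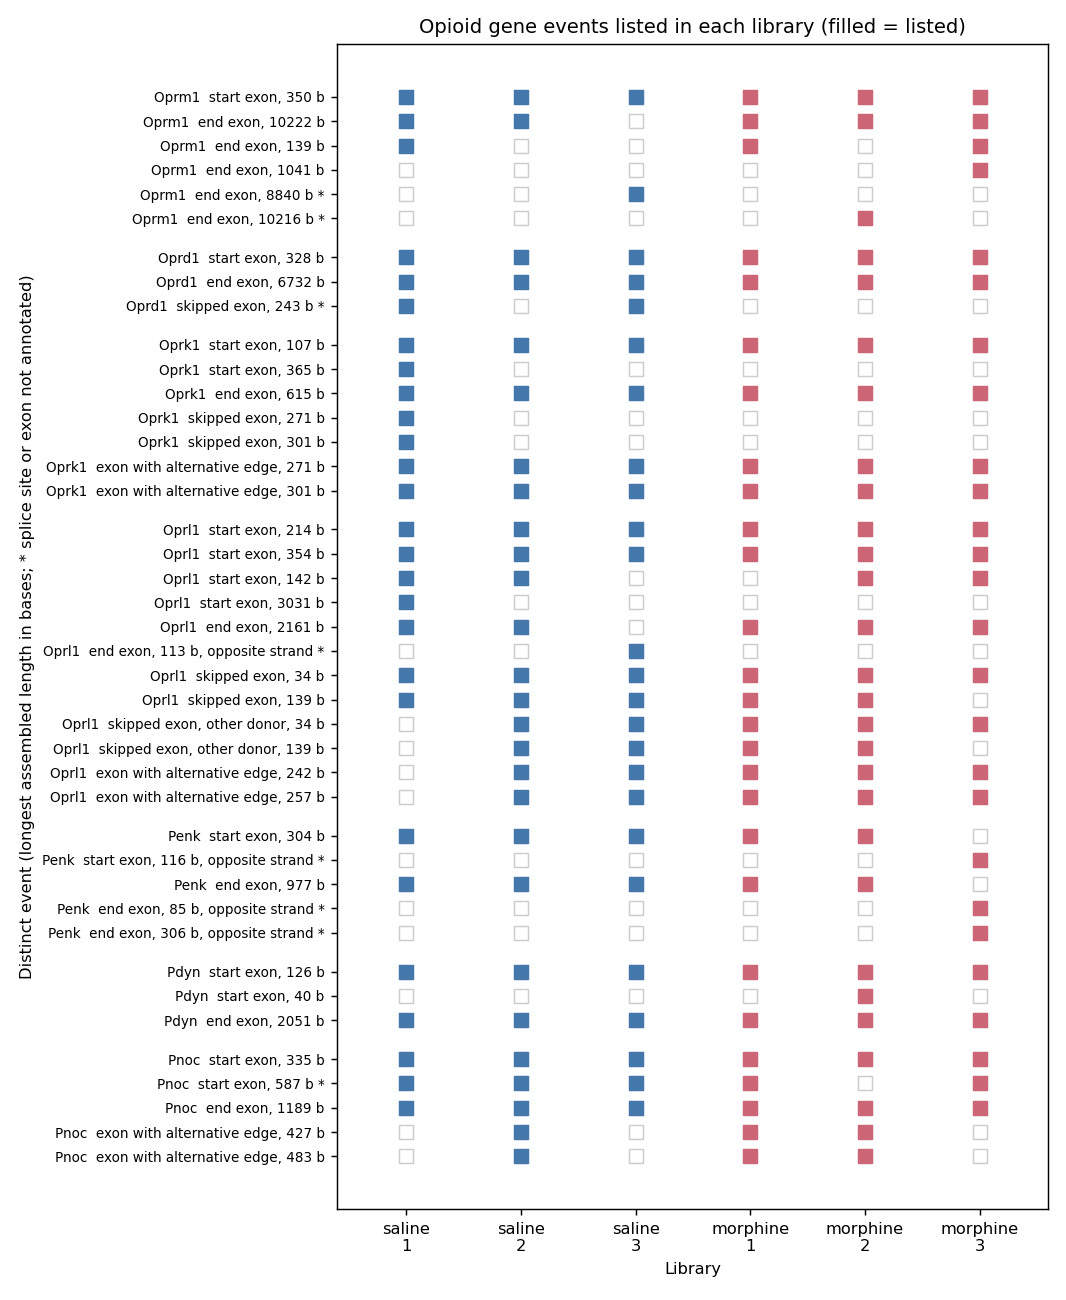
Each row is a distinct event of an opioid receptor or precursor gene and each column a library, with filled squares (blue saline, red morphine) where the event was listed. For starts and ends the length is that of the longest assembled exon. Of the 41 events, 14 are filled in all 6 libraries, and no row is filled in all 3 libraries of a group and empty in the other group.

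Sharing between libraries was wider than over all genes. Of the members' events, 34.1% were listed in all 6 libraries and 29.3% in 1, while over all genes 20.5% were listed in all 6 and 50.6% in 1. These shares describe 41 events of 7 genes and carry no test.

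**Figure D2:**
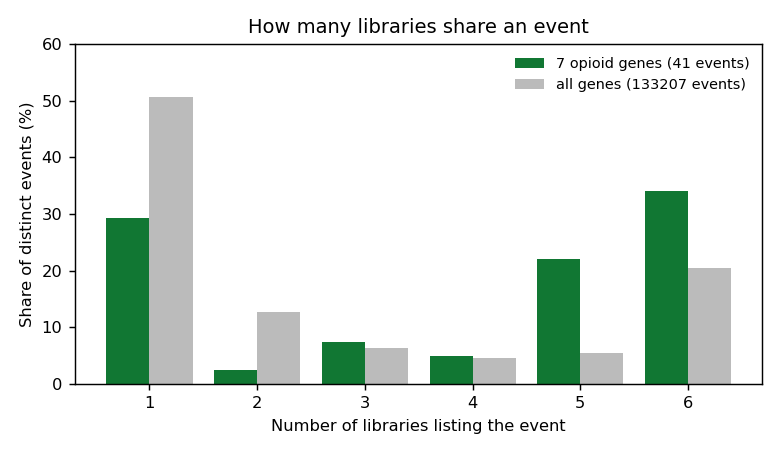
Bars give the share of distinct events (%, vertical axis) listed in 1 to 6 libraries (horizontal axis), in green for the 7 opioid genes and in grey for all genes. The green bars stand at 34.1% for 6 libraries and 29.3% for 1 library, and the grey bars at 20.5% and 50.6%.

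The first question of the design was whether morphine training changed which structures were assembled. No event of the 7 genes was listed in every library on one side of the design and in no library on the other. Over all genes, 879 of 133207 events (0.66%) had this pattern, so a count of 0 among 41 events is close to that background. The number of events per library did not separate the groups for any of the 7 genes either, while 448 of the 16154 genes (2.77%) had groups that did not overlap. Counted instead as a share of all events of the library, Oprd1 alone of the 7 separated them, as did 6.01% of all genes. After adjustment over all genes, the exact permutation test gave an adjusted p of 1 for each of the 7 genes, and with 3 libraries against 3 no gene could pass.

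The receptors ranged from 2 to 10 events in a library. Oprl1 was listed with 7, 10 and 9 events in the saline libraries and 9, 10 and 8 in the morphine libraries, the most of the 7 genes. Its mean was 8.67 ± 1.53 (SD, n = 3) against 9 ± 1 (SD, n = 3), a difference of 0.333 events for morphine minus saline (exact permutation test, p = 1) that turned negative without saline 1 (-0.5) or morphine 2 (-0.167). The groups covered nearly the same range.

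Oprk1 had 7 events in saline 1 and 4 in each of the other 5 libraries, so its difference of -1 event (exact permutation test, p = 1) came from that library alone and was 0 without it. Oprm1 had 3, 2 and 2 events with saline and 3, 3 and 4 with morphine, or 2.33 ± 0.577 against 3.33 ± 0.577 (SD, n = 3). The groups met at 3 events, and the exact permutation test gave p = 0.3. Without saline 1 they no longer met (1.33 events, exact permutation test, p = 0.1, the smallest possible). Oprd1 had 3, 2 and 3 events with saline and 2 in each morphine library, a difference of -0.667 events that rested on 1 exon (exact permutation test, p = 0.4). As a share of all events of the library, Oprd1 had 5.15, 3.65 and 5.24 events per 100000 with saline and 3.21, 3.3 and 3.51 with morphine, so that the groups did not overlap (exact permutation test, p = 0.1). Saline 2 and the morphine libraries each listed 2 Oprd1 events, and their shares differ only by the library totals. Without saline 2 the difference was -1 event and the groups did not overlap either (exact permutation test, p = 0.1). For Oprm1 without saline 1 and Oprd1 without saline 2, the share of all genes whose groups do not overlap is not given. The 2.77% of all genes holds for 3 libraries against 3 only.

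The precursors varied little. Penk had 2 events in every library but morphine 3, which had 3, and Pdyn had 2 in every library but morphine 2, which also had 3. Pnoc had 3, 5 and 3 events with saline and 5, 4 and 3 with morphine. Each of the 3 precursors thus had a difference of 0.333 events, morphine minus saline (exact permutation test, p = 1 for each), and in each the direction rested on 1 or more single libraries. Penk turned to -0.667 without opposite-strand events and to 0 without morphine 3, Pdyn to 0 without morphine 2, and Pnoc to -0.167 without morphine 1 and to 0 without saline 1 or saline 3.

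**Figure D3:**
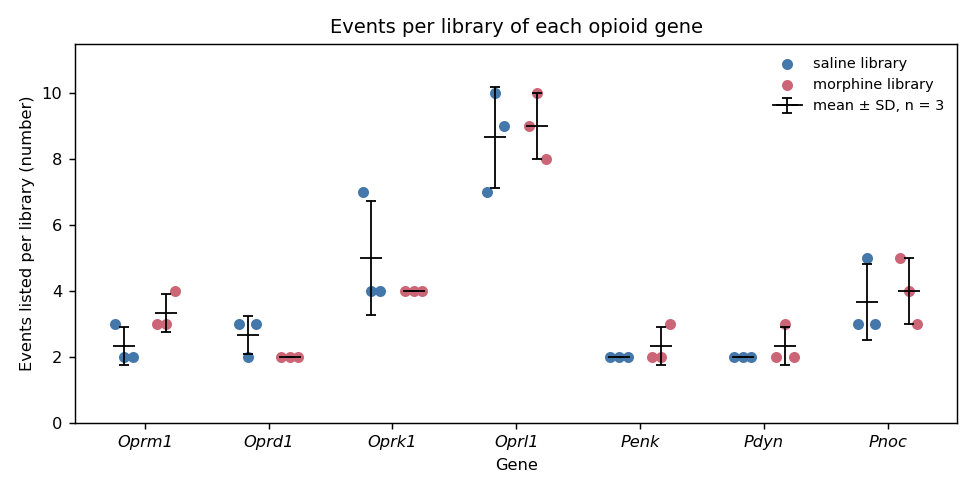
Points are the number of events listed in each library (vertical axis) for each gene (horizontal axis), blue for saline and red for morphine, with the mean ± SD of 3 libraries in black. Oprl1 stands at 7 to 10 events with saline and 8 to 10 with morphine, and the other genes at 2 to 7. In every gene the points of the groups overlap or meet.

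Over the 6 libraries, Oprl1 had 12 distinct events, more than 81.7% of all listed genes had. Oprk1 had 7, Oprm1 6, Penk and Pnoc 5 each, and Oprd1 and Pdyn 3 each. For Oprd1 and Pdyn, 19.1% of listed genes had fewer. The order was not that of the number of annotated transcripts: Oprm1 has 31 annotated transcripts, Oprl1 11, Oprk1 5, Pdyn 3, Penk and Pnoc 2 each, and Oprd1 1.

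Oprm1 encodes the receptor that morphine binds. The gene spans chr10:6758506-7038198 (plus strand), with 51 distinct annotated exons. A single start was assembled, in all 6 libraries, at the exon chr10:6788809-6789158. The other annotated start site, upstream with its donor at position 6758690, was listed in no library. No splice event of Oprm1 was listed at all. Among the 171 genes that had at least 20 annotated transcripts and were listed in all 6 libraries, 9 (5.26%) lacked splice events, whereas over all genes listed in all 6 libraries 40.6% lacked them.

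All the variety of Oprm1 was at its end. Of 12 annotated end acceptors, 3 were listed in some library and none in all 6, while over all genes 37.1% of annotated end acceptors were listed in some library and 19.4% in all 6. The acceptor at position 6849806, which begins the short tail, was listed in 5 libraries and was missing from saline 3. The acceptor at 6979616, which begins the long tail, was listed in saline 1, morphine 1 and morphine 3, with an exon of 139 bases each time. Another annotated end, the exon chr10:7037158-7038198 of 1041 bases, was listed only in morphine 3. The acceptor of the long tail was therefore listed in 1 of 3 saline and 2 of 3 morphine libraries, and the groups overlapped. The exon joined to this acceptor is not listed, so the tail is read from the annotation.

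The last exon at the short tail was far longer than annotated. It measured 10221 and 10222 bases in saline 1 and 2, and 10117, 10220 and 10217 bases in morphine 1, 2 and 3, against 808 bases for the longest annotated exon with that acceptor. The assembled exons therefore ran 9309 to 9414 bases past the annotated one and were 12.5 to 12.7 times as long. Their lengths were not compared between the groups, because saline 3 had no exon with that acceptor. In saline 3, in place of this end, an exon of 8840 bases was assembled from an unannotated acceptor 1367 bases further on, with its outer end at position 6860012, and in morphine 2 another acceptor was listed 4 bases inside the common one. All 6 libraries thus had an Oprm1 end between positions 6859922 and 6860027. Of 12255 ends with an annotated acceptor listed in at least 5 libraries, 3 (0.0245%) ran at least 9000 bases past the longest annotated exon in each library, Oprm1 among them, and 86.9% ended at or short of it in each. Both limits were set after the Oprm1 values had been seen. Oprm1 overlaps Ipcef1 on the opposite strand (chr10:6885796-7052478), listed in all 6 libraries. The long exon lies before Ipcef1, and the ends with acceptors at 6979616 and 7037158 lie within it. The part of this overlap in any Oprm1 end was not tested.

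**Figure D4:**
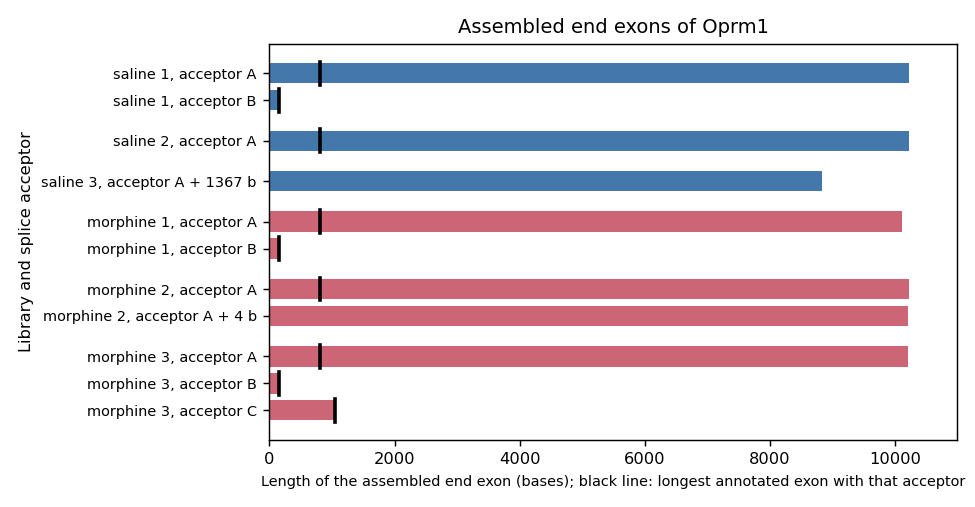
Bars give the length in bases of each assembled Oprm1 end exon, by library (blue saline, red morphine) and splice acceptor, where A begins the short tail, B the long tail and C the farthest end, and black lines mark the longest annotated exon with that acceptor. The bars at A are 10117 to 10222 bases against an annotated 808, and saline 3 has a bar of 8840 bases from 1367 bases further on.

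Oprd1 encodes the delta receptor, the main target of enkephalins. The gene lies at chr4:132110726-132144486 (minus strand) and has 1 annotated transcript of 3 exons. Its start, the exon chr4:132144159-132144486, and its end were listed in all 6 libraries. The end exon measured 3343 bases, as annotated, in 5 libraries, and 6732 bases in saline 1, where it ran 3389 bases past the annotated end.

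Oprd1 also had a skipped exon that is not annotated, chr4:132126166-132126408. It lies in the first intron of 26690 bases, 17750 bases from the first exon and 8697 from the second. Its length of 243 bases is a multiple of 3, but its sequence was not read, so stop codons within it were not looked for. Saline 1 and saline 3 listed it, with a form that included it and a form that left it out. Saline 2 and all 3 morphine libraries did not. With saline 2 left out, this exon would be the only event of the 7 genes listed throughout the saline libraries and never with morphine, while 1.96% of all events then divided the groups in this way in either direction.

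Oprk1 encodes the kappa receptor, the target of dynorphins. It lies at chr1:5588466-5606131 (plus strand). The start exon chr1:5588557-5588663 and an exon with a pair of acceptors, at positions 5589005 and 5589035, were listed in all 6 libraries. These acceptors are 30 bases apart, and both lie before the start codon, which begins 14 bases past the downstream acceptor, so either choice leaves the coding sequence whole. The end, chr1:5602252-5602866 with 615 bases, was also in all 6 libraries and stopped 3265 bases short of the annotated end of the gene. Saline 1 alone listed a further start, chr1:5588941-5589305, and skipping of the exon in both its forms. Those 3 events are the whole of that library's higher count, and the exon they skip or begin with holds the start codon.

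Oprl1 encodes the nociceptin receptor. Its 5970 bases, chr2:181715016-181720985 (plus strand), make it a compact gene, and 6 of the 13 splice events of the 7 genes were in it. The 34-base cassette exon was listed in all 6 libraries, with and without inclusion, from the longer donor. The 139-base cassette was listed in 5 libraries and was missing from morphine 3. The pair of donors 15 bases apart, at positions 181715931 and 181715946, was listed in 5 libraries and was missing from saline 1.

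These choices were listed in combination. Skipping of the 34-base exon together with the shift between donors was listed in 5 libraries, all but saline 1, and the like event for the 139-base exon in saline 2, saline 3, morphine 1 and morphine 2. Each Oprl1 splice event was found in 2 or 3 of the 3 libraries of each group. The 3 Oprl1 stretches add different things to the same junction: 5 codons for the donor, a change of frame for the 34-base exon, and a stop for the 139-base exon.

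Starts were also several in Oprl1. Donors at 181715229 and 181715946 ended first exons in all 6 libraries, and the donor at 181715489 did so in saline 1, saline 2, morphine 2 and morphine 3. All 3 annotated start sites were therefore listed, while over all genes 45.0% of annotated starts were listed in some library. In saline 1 a first exon of 3031 bases, chr2:181715702-181718732, ran unspliced across the region of both cassettes. The end with its acceptor at 181718814 was listed in 5 libraries, and saline 3 listed in its place a minus-strand end, chr2:181719074-181719186.

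**Figure D5:**
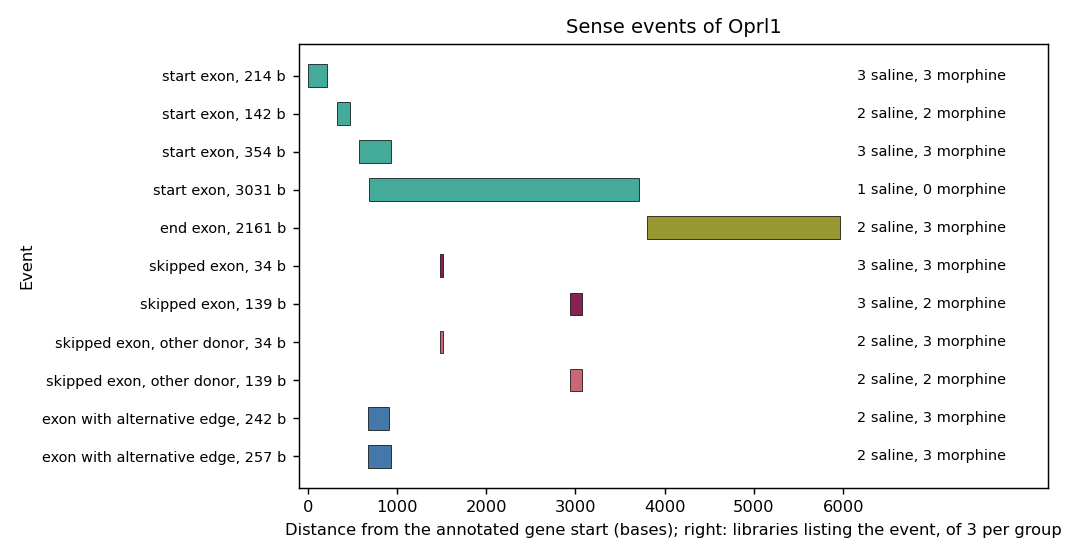
Boxes show the position of each sense-strand Oprl1 event in bases from the annotated gene start (horizontal axis), coloured by class, with the number of saline and morphine libraries listing it at the right. Every splice event is listed in at least 2 libraries of each group, and the 3031-base first exon in 1 saline library.

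The genes whose event numbers were closest to those of Oprl1, over 12 classes in 6 libraries (72 values), were Plagl1 at a Euclidean distance of 4 events and Epn1 and Hmga1 at 4.12 each. Plagl1 and Hmga1 encode a transcription factor and a chromatin protein, and Epn1 an endocytic adaptor. The likeness is one of event numbers only.

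Penk encodes the enkephalin precursor and lies at chr4:4133531-4138819 (minus strand). In 5 libraries it was listed as a simple gene with 1 start, its donor at position 4138635, and 1 end, the exon chr4:4133531-4134507 of 977 bases that holds all 7 peptide blocks. The outer edge of the start lay 98, 69 and 39 bases past the annotated gene in saline 1, 2 and 3, and 119 and 103 bases past it in morphine 1 and 2. Morphine 3 had no such start, so the edge was seen in 5 libraries only. Its difference between the groups was not tested, and no share of all starts with edges apart is given.

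Morphine 3 listed no minus-strand event under Penk. In its place were a plus-strand start, chr4:4138595-4138710 of 116 bases, and plus-strand ends at chr4:4180502-4180586 and chr4:4417368-4417673. The donor of that start is the donor of the first exon of A830012C17Rik, a noncoding gene annotated on the plus strand that overlaps Penk by 499 bases, and A830012C17Rik had 0 entries under its own identifier in any library. The plus-strand structure spanned 279079 bases, and its farther end lay 228665 bases past the annotated end of A830012C17Rik. Of 13103 genes with an annotated strand listed in all 6 libraries, 259 (1.98%) likewise had only opposite-strand events in exactly 1 library, and 11% had some opposite-strand event, as did 2 of the 7 opioid genes, Penk and Oprl1. The presence of Penk in morphine 3 therefore rests on plus-strand entries, and counted on its own strand Penk was listed in 83.3% of libraries.

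Pdyn encodes the dynorphin precursor and lies at chr2:129686565-129699844 (minus strand). Its start, chr2:129699708-129699833, and its end, chr2:129686565-129688615 of 2051 bases, which holds the 3 Leu-enkephalin blocks, were listed in all 6 libraries. The edges were the same to the base in every library. A second annotated start, chr2:129698619-129698658 of 40 bases, was listed only in morphine 2, the library with the highest relative depth (1.59). By contrast, the 3 Oprk1 events listed in 1 library only were in saline 1, the library with the lowest relative depth (1). The part of depth in either was not tested.

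Pnoc encodes the nociceptin precursor and lies at chr14:65400673-65425472 (minus strand). Its annotated start, with the donor at position 65425138, and its end, chr14:65400673-65401861 of 1189 bases, were listed in all 6 libraries. A second start donor at 65425396, not annotated, was listed in 5 libraries and was missing from morphine 2. The alternative donors of the peptide-coding exon, 56 bases apart at 65404704 and 65404760, were listed in saline 2, morphine 1 and morphine 2. The nociceptin block lies 118 bases before the upstream donor, so it is kept in both forms, and the forms differ only in the codons after the junction. This choice was seen in 1 of 3 saline and 2 of 3 morphine libraries.

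Genes that act with these receptors and peptides were described from a list of 57, all listed in some library and 55 in all 6. The exceptions were Anpep, a peptidase that breaks down enkephalins, in 5 libraries, and Npff, a precursor of opioid-modulating peptides, in 1. Of the list's 527 distinct events, 4 (0.759%) were present in all 3 saline libraries and no morphine library, and 0 showed the reverse, against 0.66% of all events in either direction. The 4 events were an intron retention and a start of Cacna1a, a presynaptic calcium channel subunit, an annotated 216-base skipped exon of Gnao1, an inhibitory G protein subunit, and a multiple-exon skip of Gprasp1, which sorts receptors after endocytosis. The number of events separated the groups in 1 of the 57 genes (1.75%, against 2.77% of all genes). That gene was Rgs7, a regulator that speeds the shut-off of G proteins, with 4 events in each saline library and 8, 6 and 8 in the morphine libraries (exact permutation test, p = 0.1, adjusted p = 1). It was singled out after its values were seen.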

How the data were processed

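The authors sequenced total RNA from the nucleus accumbens of adult male C57BL/6N mice with a strand-specific kit, mapped reads with HISAT2 and assembled transcripts with StringTie. Each library has a deposited list of exon-structure events whose value column, named for FPKM, holds only whole numbers from -25 to 0. That column is treated as a score of unstated meaning and was not used as a level. A second deposited table, of differential lncRNA transcripts, gives counts and FPKM made by the authors. Only its ratio of counts to FPKM was used, for relative depth (values of at least 10 counts), and its fold changes and p-values were not used. No genome build is named in the sources used here, and the coordinates were those of GRCm38 with GENCODE M21.

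Entries were merged into events by class (12 classes), gene, strand and position. A start or end was identified by its splice side, because the outer end varied between libraries. Events per gene and library were compared with an exact two-sided permutation test, 3 libraries against 3, over all 16154 genes, with Benjamini-Hochberg adjustment at 0.05, tested first on simulated data. Replicate numbers follow accession order and only name libraries. Whether libraries hold 1 mouse or several is not clear from the sources, so p-values measure the spread between libraries only. Sequences were read from the GENCODE M21 transcripts. The 7 genes and the lists were chosen with earlier results of these data known. All 7 genes were described, and other genes were named by group-specific events or, for likeness to the member with the most events, by Euclidean distance over class and library. Python 3.11.15, numpy 2.4.6 and pandas 2.3.3 were used. Alternatives changed the identity of events, the classes and strands counted, the scale and the libraries. The table of differential lncRNA transcripts has no column outside these 6 libraries. One marker gene is not reported here.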

Additional observations from a re-analysis of the deposited data

How the results depend on the processing

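Of 149 recomputed values, 5 changed sign and 8 differences in events fell to 0. The smallest p possible, 0.1 (exact permutation test), was reached in 3 of them: Oprd1 as a share of all events of the library (-1.34 per 100000 events), Oprd1 without saline 2 (-1 event) and Oprm1 without saline 1 (1.33 events). As such a share, Oprl1 turned to -0.338. Leaving out libraries in turn gave -0.5 to 1 events for Oprl1, negative without saline 1 and without morphine 2 (-0.167), and -0.167 to 1 for Pnoc, negative without morphine 1 and 0 without saline 1 or saline 3. It gave -1.5 to 0 for Oprk1, 0 without saline 1, and 0 to 0.5 for Penk and Pdyn, 0 without morphine 3 and morphine 2 in turn. With splice events only the difference was 0 for Oprm1, Penk and Pdyn, which had none. Penk turned to -0.667 without opposite-strand events. The count of events specific to a group ranged from 0 to 1, and was 1 without saline 2, the Oprd1 exon. With splice events only, 0% of libraries listed Oprm1, Penk and Pdyn, 33.3% listed Oprd1 and 50.0% listed Pnoc, by construction of that alternative. Without opposite-strand events 83.3% listed Penk. No paired analysis was possible because the replicate numbers follow accession order and link no libraries. Absence from a list is limited by depth, which these lists do not give per gene, and for skipped exons by whether both forms were assembled.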
